A study of Homo sapiens with 6 samples.

Results

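The genes described here are 38 genes of amino acid supply to translation, out of 18795 genes with a value in every library of a study of sorted breast cancer cells. They were chosen by name: 19 cytosolic aminoacyl-tRNA synthetases and 19 genes of serine, one-carbon and asparagine synthesis, amino acid transport and the ATF4 response. The choice followed earlier results of the same data, since AARS1 had stood out between the cell lines. The difference between the lines is therefore given below as a description. A fit over all genes gives counts of members that passed, which are no test of the group. All 38 were found in the table and all 38 passed the filter of a mean of at least 1 FPKM, which left 12454 genes. FPKM is a count of sequenced fragments, corrected for how long the transcript is and how deeply the library was sequenced.

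The 6 libraries came from MDA-MB-468 and HCC70, human lines of basal-like breast cancer. From each line, 3 populations were sorted by antibody staining. K18+K14+ cells were positive for keratin 18 and keratin 14, K18+Vim+ cells for keratin 18 and vimentin, and K18+ cells for keratin 18. Each population of each line gave 1 library, so a line had n = 3 libraries of different populations and a population had n = 2 libraries of different lines, and nothing in the labels says that any came from separate cultures. All cells were detached with trypsin, fixed in methanol and sorted before RNA was recovered, and none of the 6 libraries is from unfixed or unsorted cells. In such bulk libraries, fewer cells with a transcript and less of it per cell cannot be told apart. MDA-MB-468 was grown in Leibovitz L15 medium and HCC70 in RPMI medium. Medium and line go together in all 6 libraries and cannot be told apart.

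Aminoacyl-tRNA synthetases join each amino acid to its tRNA, and several of the cytosolic enzymes sit in a common multisynthetase complex. When amino acids run short or proteins misfold, kinases phosphorylate the initiation factor eIF2, general translation drops, and the transcription factor ATF4 is translated more. ATF4 protein then switches on synthetases, transporters and enzymes that make serine, asparagine and one-carbon units. Because this step acts on translation, the level of ATF4 mRNA does not show the level of ATF4 protein.

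The library with the K18+Vim+ label from MDA-MB-468 did not resemble the rest of its line, and is called below the library that stood apart. The 9 epithelial markers summed to 174 FPKM there, against 2903 FPKM in K18+K14+ and 2317 FPKM in K18+ cells of MDA-MB-468 and 2334 to 2520 FPKM in HCC70. SMAD4, which is at most 0.57 FPKM in the other MDA-MB-468 libraries, had 5.19 FPKM there, and EGFR, which is amplified in this line, had 10.4 FPKM against 70.7 and 153 FPKM. RB1 had 6.68 FPKM in it, against 0.27 FPKM in K18+K14+ and 0.31 FPKM in K18+ cells of MDA-MB-468. VIM was at 259 FPKM in it and at 54.8 FPKM in HCC70 K18+Vim+ cells. KRT18, the antigen common to all sorts, was at 67.7 FPKM in it. It was at 569 and 464 FPKM in K18+K14+ and K18+ cells of MDA-MB-468, and at 158 to 216 FPKM in HCC70. KRT14 was at 6.42 FPKM in it, against 279 and 47.8 FPKM in K18+K14+ and K18+ cells of MDA-MB-468. Results on the lines are therefore given with and without this library. The 8 immune and endothelial markers summed to between 2.3 and 8.3 FPKM in the 6 libraries, and 6 of them stayed under 1 FPKM in each. The depth of the libraries is unknown, since no read counts were given.

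Most of the 38 genes were lower in MDA-MB-468 than in HCC70, and the lowest ratios were those of IARS1, WARS1, AARS1, SLC7A5, SESN2 and ASNS. In K18+K14+ cells 24 members were lower in MDA-MB-468, in K18+ cells 26, and in the K18+Vim+ libraries as labelled 25. The shares of all genes lower or higher in this way were not computed. The median log2 ratio of MDA-MB-468 over HCC70 was -0.49, -0.64 and -0.32 for the members in these 3 populations, beside -0.07, -0.02 and 0.09 for all 12454 genes. The members' share of all summed FPKM was 0.682% in MDA-MB-468 K18+K14+ cells, 0.669% in the library labelled K18+Vim+ and 0.789% in K18+ cells. It was 1.15%, 1.02% and 1.12% in the same HCC70 populations. Their summed FPKM, in the same order, was 5221, 3770 and 4036 in MDA-MB-468 and 5692, 4980 and 5703 in HCC70. In K18+K14+ cells the sums differed less than the shares. There the 100 highest genes held 36.3% of all summed FPKM in MDA-MB-468 and 23.5% in HCC70. A further 11 members were higher in MDA-MB-468 in both K18+K14+ and K18+ cells, so the genes did not move as 1 block. The line ratios of the members went with transcript length, with a rank correlation of -0.59 in K18+K14+ cells, -0.27 in the K18+Vim+ libraries and -0.50 in K18+ cells over the 37 members with a length, beside -0.19, -0.05 and -0.07 over all genes. With ratios corrected for length, the fitted log2 difference over all 6 libraries was -1.86 for AARS1, -2.41 for IARS1 and -2.17 for WARS1, beside -1.95, -2.52 and -2.25 without the correction, and the members' median was -0.58, beside -0.62. The correction was fitted over all genes, whose ratios followed length less. The members' correlation after it was not computed, so it does not show how far length enters their ratios.

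In the limma fit across all genes, 5 members passed an adjusted p of 0.05 as lower in MDA-MB-468 and 0 as higher, where 7.68% of all genes passed as lower and 4.54% as higher. Without the MDA-MB-468 library with the K18+Vim+ label, 10 members passed as lower and 1 as higher, beside 15.4% and 11.5% of all genes. The 3 MDA-MB-468 libraries lay wholly below the 3 HCC70 libraries for 18 members and wholly above them for 6, beside 21.0% and 20.1% of all genes. Without the library that stood apart, 21 members lay wholly below and 8 wholly above, beside 28.0% of all genes in each direction. These counts rest on the contrast that led to the choice of the genes, and nothing is read from them about the group as a whole.

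**Figure D1:**
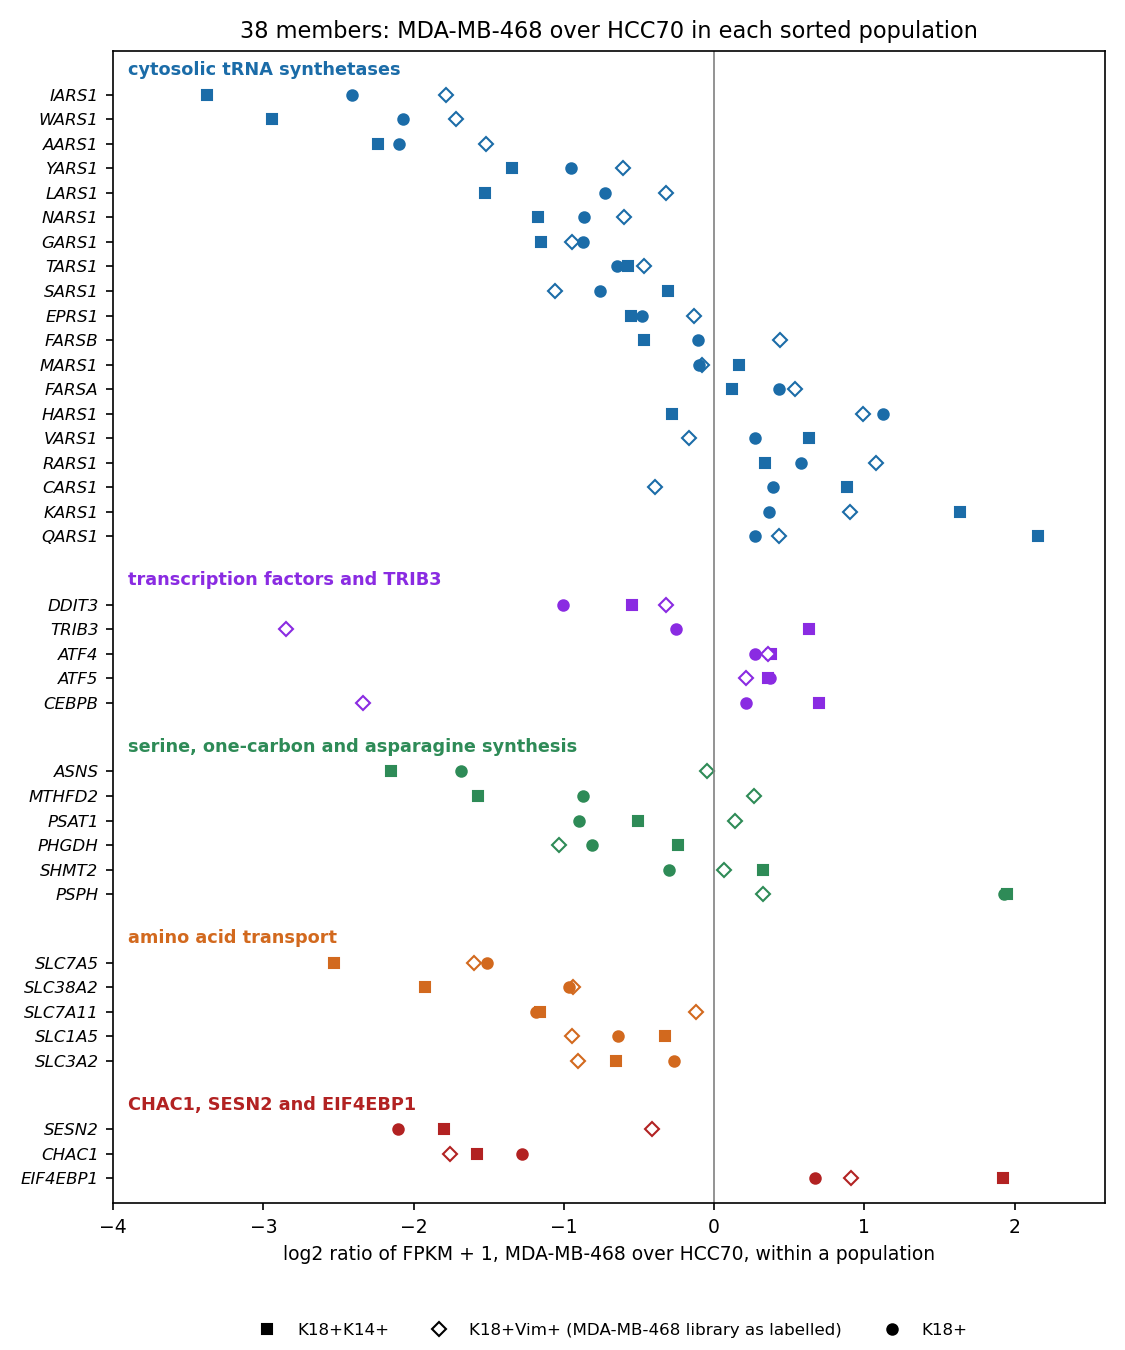
Log2 ratio of FPKM + 1, MDA-MB-468 over HCC70 (x axis), for each of the 38 members (rows, grouped by role), with 1 symbol for each sorted population. IARS1, WARS1 and AARS1 lie to the left of -1.5 in all 3 populations, while KARS1, QARS1 and EIF4EBP1 lie to the right of 0, farthest in K18+K14+ cells.

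Values in each library follow, for each line in the population order K18+K14+, K18+Vim+ and K18+, with the second MDA-MB-468 value from the library as labelled. AARS1, which charges tRNA with alanine, had 31.0, 37.1 and 36.2 FPKM in MDA-MB-468, against 150, 109 and 158 FPKM in HCC70. The lines did not overlap, and the library that stood apart had the AARS1 level of its line's other libraries. The log2 ratio of MDA-MB-468 over HCC70 was -2.24 in K18+K14+ cells, -1.52 in the K18+Vim+ libraries and -2.10 in K18+ cells. IARS1, the isoleucine enzyme, had 15.5, 51.0 and 42.2 FPKM in MDA-MB-468, against 170, 178 and 229 FPKM in HCC70. WARS1, the tryptophan enzyme, which is also known as a gene induced by interferon gamma, had 16.4, 48.6 and 31.2 FPKM in MDA-MB-468, against 133, 162 and 134 FPKM in HCC70. For IARS1 and WARS1 the lines were again apart, and in MDA-MB-468 the K18+K14+ library was the lowest of the 3.

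YARS1, the tyrosine enzyme, had 67.6, 101 and 95.0 FPKM in MDA-MB-468, against 173, 155 and 185 FPKM in HCC70. LARS1, the leucine enzyme, had 22.7, 64.5 and 57.7 FPKM in MDA-MB-468, against 67.2, 80.8 and 96.2 FPKM in HCC70. Both were lower in MDA-MB-468 with no overlap, but the gap of LARS1 was narrow, with its highest MDA-MB-468 library close to its lowest HCC70 library. QARS1, the glutamine enzyme, had 676, 193 and 158 FPKM in MDA-MB-468, against 151, 143 and 131 FPKM in HCC70. It did not overlap either, with MDA-MB-468 higher, and the K18+K14+ library alone was far above the other 5.

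Among the 19 synthetases, 11 were lower in MDA-MB-468 in both K18+K14+ and K18+ cells, 6 were higher in both, and MARS1 and HARS1 differed in sign between them. Besides those named above, NARS1, GARS1, TARS1, SARS1 and EPRS1 were lower with no overlap between the 3 libraries of each line. Their means over the 3 HCC70 libraries were 1.38 to 1.87 times the mean of the MDA-MB-468 K18+K14+ and K18+ libraries. KARS1 and RARS1 were higher with no overlap. KARS1, the lysine enzyme, had 559, 224 and 227 FPKM in MDA-MB-468, against 179, 119 and 176 FPKM in HCC70. CARS1 was higher and FARSB lower only when the library that stood apart was left out. MARS1, the methionine enzyme, was level: it had 360, 299 and 282 FPKM in MDA-MB-468, against 321, 316 and 303 FPKM in HCC70. FARSA, HARS1 and VARS1 overlapped between the lines with either set of libraries.

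The synthetases of the multisynthetase complex did not share a direction. Of 10 genes for its enzymes and scaffold proteins, a grouping made after the values were seen, 5 were lower in MDA-MB-468 in K18+K14+ and K18+ cells (EPRS1, IARS1, LARS1, AIMP1 and AIMP2). Another 4 were higher (KARS1, QARS1, RARS1 and EEF1E1), and MARS1 was split. GARS1 was the most abundant synthetase in HCC70, with a mean of 756 ± 105 FPKM (SD over 3 populations), and HARS1 the least, with 26.4 ± 4.21 FPKM.

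**Figure D2:**
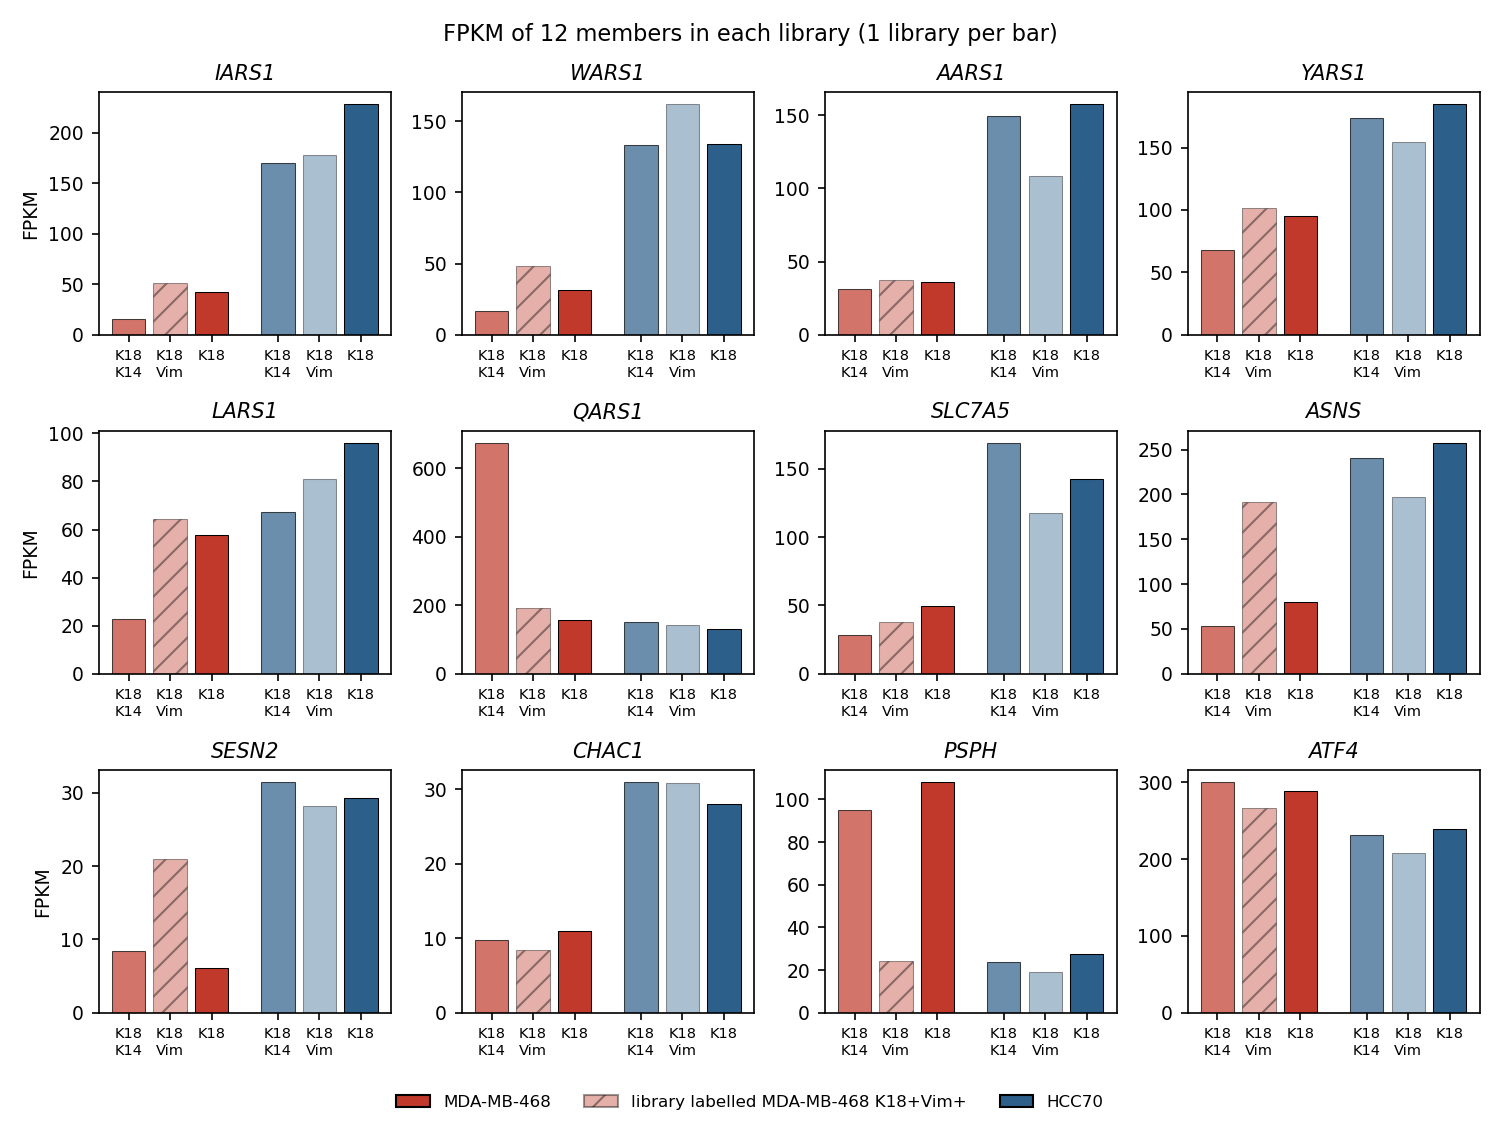
FPKM (y axis, each panel from 0) of 12 members in each of the 6 libraries, with 1 bar per library, MDA-MB-468 in red and HCC70 in blue. The hatched bar is the MDA-MB-468 library with the K18+Vim+ label, in which ASNS (191 FPKM) and SESN2 (20.9 FPKM) are near HCC70 levels while AARS1 (37.1 FPKM) and CHAC1 (8.43 FPKM) are not.

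ATF4 with its partners binds composite C/EBP-ATF elements of the pattern TGATGNAA. This pattern was searched on both strands of RefSeq promoter windows (GRCh38.p14) of 300 bases, which run from 250 bases before to 50 bases after a transcription start. Windows were at hand for 31 of the 38 members, 48 windows in all, since 13 of these genes have more than 1. A match was found in 11 windows (22.9%), beside 3.62% of all 35116 windows and 2.04% of the windows of genes tested. By gene, 11 of 31 members (35.5%) had a match in some window, beside 2.79% of the tested genes with a window. The members were chosen in part as known ATF4 targets, so this share is a description of the list. The matches were in IARS1, AARS1, ASNS, CHAC1, NARS1, GARS1, CARS1, TARS1, SLC1A5, SLC3A2 and MARS1. Of the windows of members lower in MDA-MB-468 in K18+K14+ and K18+ cells, 9 of 30 held the pattern, and of the other members' windows 2 of 18, the windows of MARS1 and CARS1. These are counts of windows and not of genes, split by the contrast that led to the choice of the genes. The part of ATF4 in the line difference was not tested.

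The windows of the 3 members with a match and the largest differences between the lines are shown, on the gene's strand, 5′ to 3′, with the bases that match the pattern or its reverse complement TTNCATCA in capitals. They lie at chr9:92293648-92293947 (minus strand) for IARS1, chr16:70289457-70289756 (minus strand) for AARS1 and chr7:97872359-97872658 (minus strand) for ASNS. Counted from the start site, with -1 the base just before it, the match begins at -13 in IARS1, -187 in AARS1 and -68 in ASNS. It reads as the reverse complement in IARS1 and AARS1 and as the pattern itself in ASNS.
IARS1: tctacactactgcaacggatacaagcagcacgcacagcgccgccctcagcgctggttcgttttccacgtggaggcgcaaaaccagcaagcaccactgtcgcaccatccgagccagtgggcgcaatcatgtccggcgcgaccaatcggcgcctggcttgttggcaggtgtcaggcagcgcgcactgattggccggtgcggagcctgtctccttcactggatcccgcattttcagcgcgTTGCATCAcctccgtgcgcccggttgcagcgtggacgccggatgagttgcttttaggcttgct
AARS1: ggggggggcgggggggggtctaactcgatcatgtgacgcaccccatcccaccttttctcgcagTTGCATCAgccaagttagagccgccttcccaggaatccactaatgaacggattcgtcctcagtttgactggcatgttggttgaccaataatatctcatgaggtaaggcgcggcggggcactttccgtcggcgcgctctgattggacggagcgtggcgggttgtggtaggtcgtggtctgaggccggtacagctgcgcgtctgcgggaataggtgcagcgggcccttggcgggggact
ASNS: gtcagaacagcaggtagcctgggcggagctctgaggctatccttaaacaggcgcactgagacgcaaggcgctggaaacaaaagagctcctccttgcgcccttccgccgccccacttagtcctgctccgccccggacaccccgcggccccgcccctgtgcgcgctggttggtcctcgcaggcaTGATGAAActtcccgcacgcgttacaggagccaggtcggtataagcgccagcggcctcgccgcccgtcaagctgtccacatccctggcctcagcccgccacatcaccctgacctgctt

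ATF4 and ATF5 were not lower in MDA-MB-468, while the other genes of the group of transcription factors and TRIB3 differed among libraries. In the fit without the library that stood apart, 1 of these 5 genes was lower and the median log2 difference was 0.33, and with all 6 libraries 3 were lower and the median was -0.47. ATF4 had 301, 267 and 289 FPKM in MDA-MB-468, against 231, 208 and 239 FPKM in HCC70. ATF5, a related factor that is also controlled in translation, had 13.6, 10.4 and 12.1 FPKM in MDA-MB-468, against 10.4, 8.86 and 9.11 FPKM in HCC70. Both were slightly higher in MDA-MB-468 with no overlap, by log2 ratios of 0.21 to 0.38, and the gap of ATF5 was barely open. The difference of ATF4 depended on scaling. Its fitted log2 difference over all 6 libraries was 0.34, but 0.07 with quantile normalization, while that of ATF5 was 0.315 and 0.46. ATF5 shares 563 exon bases on the opposite strand with NUP62.

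DDIT3, which encodes the stress factor CHOP, had 35.4, 47.5 and 27.1 FPKM in MDA-MB-468, against 52.3, 59.6 and 55.5 FPKM in HCC70. It was lower in MDA-MB-468 with no overlap. It shares 62 exon bases on opposite strands with MARS1 in the GENCODE annotation, and reads there cannot be told apart without strand. CEBPB, a bZIP factor that partners ATF4, had 158, 18.3 and 88.9 FPKM in MDA-MB-468, against 96.7, 96.7 and 76.5 FPKM in HCC70. TRIB3, a pseudokinase induced by ATF4 and CHOP, had 115, 11.7 and 63.6 FPKM in MDA-MB-468, against 73.8, 90.3 and 76.0 FPKM in HCC70. For both the lines overlapped, and the MDA-MB-468 library with the K18+Vim+ label was the lowest of the 6, while the K18+K14+ library of that line was the highest.

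Of the genes for serine, one-carbon and asparagine synthesis, ASNS was the lowest in MDA-MB-468 relative to HCC70 and PSPH the highest. ASNS, which makes asparagine, had 53.6, 191 and 79.5 FPKM in MDA-MB-468, against 241, 197 and 258 FPKM in HCC70. The lines did not overlap, but the library that stood apart lay just under the lowest HCC70 library, with a log2 ratio of -0.04 there against -2.15 in K18+K14+ and -1.68 in K18+ cells. MTHFD2, a mitochondrial enzyme of folate-bound one-carbon units, had 33.1, 73.9 and 67.4 FPKM in MDA-MB-468, against 100, 61.3 and 124 FPKM in HCC70. Its lines overlapped because HCC70 K18+Vim+ cells were low. MTHFD2 shares exon bases on the opposite strand with SLC4A5.

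The 3 enzymes that make serine from a glycolytic intermediate did not move together. PHGDH, the first of them, had 234, 117 and 159 FPKM in MDA-MB-468, against 277, 240 and 281 FPKM in HCC70, with no overlap. PSAT1, the next, had 64.8, 83.0 and 64.1 FPKM in MDA-MB-468, against 92.6, 75.4 and 120 FPKM in HCC70, with no overlap once the library that stood apart was left out. SHMT2, the mitochondrial enzyme that takes the carbon from serine, was level, with 120, 103 and 77.2 FPKM in MDA-MB-468, against 95.6, 98.2 and 95.4 FPKM in HCC70. RefSeq lists pseudogenes for ASNS, MTHFD2, PSAT1 and PSPH, among others, and how reads shared with such copies were counted is not given in the sources used here.

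PSPH, the last enzyme of serine synthesis, had the highest mean ratio of MDA-MB-468 over HCC70 in K18+K14+ and K18+ cells of the 38 members. It had 95.0, 24.2 and 108 FPKM in MDA-MB-468, against 23.9, 19.0 and 27.7 FPKM in HCC70. The K18+K14+ and K18+ libraries of MDA-MB-468 averaged 4.32 times the mean of the 3 HCC70 libraries, with log2 ratios of 1.95 and 1.93. The library that stood apart lay within the HCC70 range. PSPH lies near EGFR on chromosome 7. Of 13 genes listed there, PSPH and EGFR included, 12 were higher in MDA-MB-468 in both K18+K14+ and K18+ cells, and 9 in all 3 populations. Their median log2 ratio was 1.95 in K18+K14+ cells, 0.33 in the K18+Vim+ libraries and 1.68 in K18+ cells. In K18+K14+ cells and the K18+Vim+ libraries PSPH is itself the median gene, so its closeness to the median there carries no weight. CCT6A, the next gene after PSPH in the list, had log2 ratios of 1.13, 1.13 and 1.97, and NIPSNAP2, the one before it, 0.34, 0.42 and 0.57. DNA copy number was not measured in these samples, and its part in the PSPH level was not tested.

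**Figure D3:**
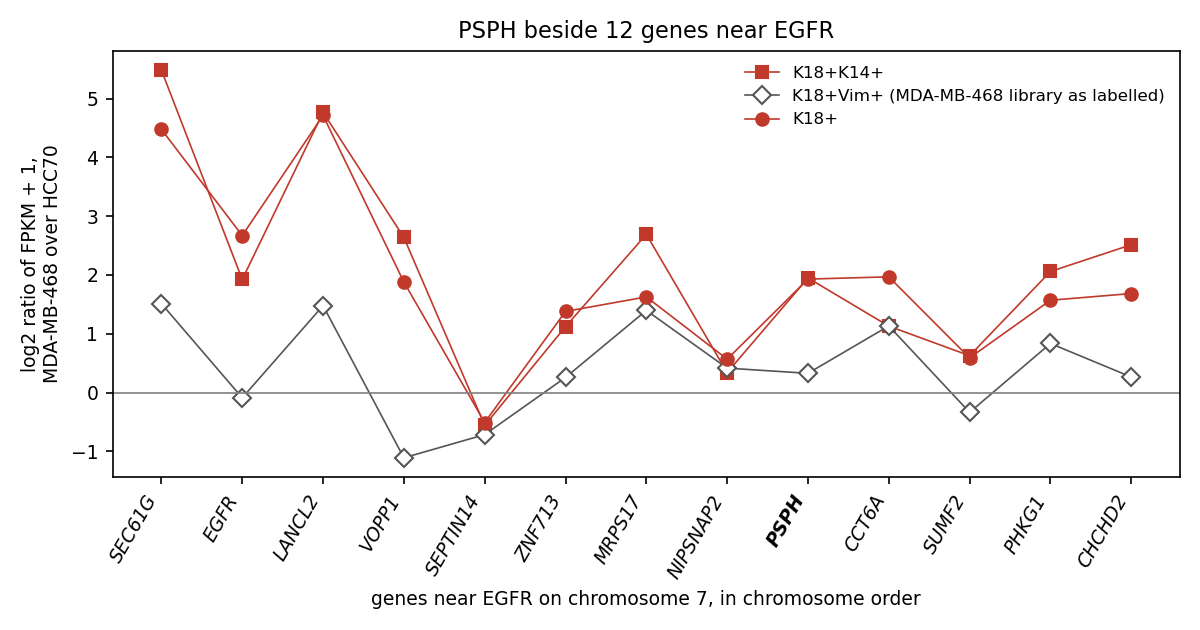
Log2 ratio of FPKM + 1, MDA-MB-468 over HCC70 (y axis), for PSPH and 12 genes near EGFR in chromosome order (x axis, not to distance), with 1 line per sorted population. In K18+K14+ and K18+ cells PSPH (1.95 and 1.93) lies at the height of several neighbours. In the K18+Vim+ libraries as labelled PSPH (0.33) and EGFR (-0.09) are near 0. Other neighbours are not, such as SEC61G (1.51) and CCT6A (1.13) above and VOPP1 (-1.11) below.

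All 5 amino acid transporters were lower in MDA-MB-468 in K18+K14+ and K18+ cells. SLC7A5, the large neutral amino acid transporter that takes up leucine, had 28.4, 38.1 and 49.2 FPKM in MDA-MB-468, against 169, 117 and 142 FPKM in HCC70. SLC3A2, the heavy chain that pairs with SLC7A5 and with SLC7A11, had 354, 237 and 366 FPKM in MDA-MB-468, against 556, 446 and 441 FPKM in HCC70. Neither overlapped, but the chain common to both transporters differed less than SLC7A5. The mean of the 3 HCC70 libraries, K18+Vim+ included, was set against the mean of the MDA-MB-468 K18+K14+ and K18+ libraries. It was 1.34 times that mean for SLC3A2 and 3.68 times for SLC7A5.

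SLC38A2, a sodium-coupled transporter of small neutral amino acids, had 12.3, 22.1 and 35.4 FPKM in MDA-MB-468, against 49.5, 43.4 and 70.2 FPKM in HCC70. SLC7A11, the cystine and glutamate exchanger, was the lowest member, with 1.19, 5.18 and 2.65 FPKM in MDA-MB-468, against 3.88, 5.73 and 7.29 FPKM in HCC70. SLC1A5, a transporter of glutamine and other neutral amino acids, had 181, 88.5 and 156 FPKM in MDA-MB-468, against 228, 172 and 244 FPKM in HCC70. SLC38A2 did not overlap between the lines, SLC7A11 did so only through the library that stood apart, and SLC1A5 overlapped with or without it.

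CHAC1, which breaks down glutathione, had 9.70, 8.43 and 10.96 FPKM in MDA-MB-468, against 31.0, 30.8 and 28.0 FPKM in HCC70. SESN2, which holds back mTORC1 when leucine is low, had 8.37, 20.9 and 6.04 FPKM in MDA-MB-468, against 31.5, 28.2 and 29.3 FPKM in HCC70. Both were lower in MDA-MB-468 with no overlap, and in HCC70 the 3 populations lay within 1.12-fold of each other for each gene. EIF4EBP1, which binds the cap-binding factor eIF4E and blocks initiation, had 387, 182 and 126 FPKM in MDA-MB-468, against 101, 96.4 and 78.7 FPKM in HCC70. It was higher in MDA-MB-468 with no overlap.

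Genes outside the 38 were described through lists, with the same contrast and no test, first in K18+K14+ and K18+ cells and then in the fit of all 6 libraries, which includes the library that stood apart. Of 26 other ATF4 response genes, 18 were lower in MDA-MB-468 in K18+K14+ and K18+ cells and 3 were higher. Their median over genes of the mean log2 ratio in these populations was -0.93, beside -0.52 for the 38 members and -0.05 for all genes. With all 6 libraries, 21 were lower and 5 higher, with a median of -0.78, beside -0.62 for the members and 0.01 for all genes. VEGFA, an angiogenic factor, had a mean log2 ratio of -3.00 and NDRG1, a gene also known for hypoxia, -2.93. PYCR1, which makes proline, had 4.91, 34.9 and 28.98 FPKM in MDA-MB-468, against 67.2, 49.1 and 67.3 FPKM in HCC70, and was named after its values were seen.

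Other branches near the pathway did not all share this direction, and several depended on the library that stood apart. Of 17 mitochondrial tRNA synthetases, 4 were lower in MDA-MB-468 in K18+K14+ and K18+ cells and 8 higher, with a median of 0.23. RARS2 and FARS2 were highest at 1.74 and 1.11. Both rested mostly on K18+K14+ cells, with log2 ratios of 2.665 and 1.78 there, against 0.82 and 0.43 in K18+ cells. With all 6 libraries, 15 of the 17 were higher and 2 lower, with a median of 0.48. Of 6 further genes of the cytosolic synthetase machinery, 4 were lower and 2 higher, with a median of -0.74. XPOT, which exports tRNA, was at -1.49 and EEF1E1 at 1.28. With all 6 libraries, 4 were again lower and 2 higher, with a median of -0.48, so this list went with the members in direction. In the K18+Vim+ libraries alone its median was 0.12. Of 14 genes for eIF2, its kinases and eIF2B, 6 were lower and 4 higher, with a median of -0.29, EIF2B4 at 1.27 and IMPACT at -1.22. With all 6 libraries, 7 were lower and 7 higher, with a median of 0.02. HARS1 and HARS2 share exon bases on opposite strands, so their counts cannot be told apart without strand.

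Of 14 chaperone targets of ATF6 and XBP1, which mark other arms of the unfolded protein response, 6 were lower and 6 higher, with a median of 0.05, SEL1L at -1.23 and SDF2L1 at 1.004. With all 6 libraries, 5 were lower and 9 higher, with a median of 0.19. Of 15 further genes of folate one-carbon metabolism, 7 were lower and 6 higher, with a median of 0.03, TYMS at 2.22 and SFXN3 at -1.43. With all 6 libraries, 6 were lower and 9 higher, with a median of 0.23. Of 12 NRF2 targets, which also include SLC7A11, 3 were lower and 4 higher, with a median of -0.04, TALDO1 at 2.20 and SLC7A11 at -1.17. With all 6 libraries, 7 were lower and 5 higher, with a median of -0.17.

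The populations differed less within HCC70 than within MDA-MB-468. Across the 3 HCC70 libraries, the highest was under 1.5 times the lowest for 31 of the 38 members and under 2 times for 37, the exception being MTHFD2. Between K18+K14+ and K18+ cells, 3 members were 1.5-fold or more apart in HCC70 and 16 in MDA-MB-468. The shares of all genes at 1.5-fold, and for the spread across the 3 HCC70 libraries, were not computed. That spread was not counted in MDA-MB-468 either. Past 2-fold, 3.1% of all genes differed between K18+K14+ and K18+ cells in HCC70 and 24.7% in MDA-MB-468. The contrast was thus not one of the members alone.

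K18+K14+ cells were set against K18+ cells to ask what goes with keratin 14. No member passed the test. In the limma fit, 0 of 12454 genes (0.0%) passed an adjusted p of 0.05, 428 had an unadjusted p under 0.05, and 0 of these were members. The lowest adjusted p of a member was 0.855. In all, 10 members were higher in K18+K14+ cells in both lines and 14 lower, beside 20.2% and 43.7% of all genes. The median log2 ratio of the members was -0.06 in MDA-MB-468 and -0.03 in HCC70, beside -0.17 and -0.15 for all genes.

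Past 2-fold, 8 members differed in MDA-MB-468 and 0 in HCC70, beside 24.7% and 3.1% of all genes. In MDA-MB-468 these were QARS1, EIF4EBP1 and KARS1, with log2 ratios of K18+K14+ over K18+ of 2.09, 1.61 and 1.29, and SLC38A2, IARS1, LARS1, HARS1 and MTHFD2, with -1.45, -1.39, -1.31, -1.21 and -1.002. In HCC70 the same genes had 0.20, 0.36 and 0.02, and -0.50, -0.43, -0.51, 0.19 and -0.31. The difference between the lines in these ratios was not tested, since each line gave 1 library per population.

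Of the members higher in K18+K14+ cells in both lines, FARSA, VARS1, EIF4EBP1, CEBPB and QARS1 came first when ranked by the smaller of their 2 line ratios. By the fitted difference the order was QARS1, EIF4EBP1 and KARS1, with KARS1 at 0.66 from ratios of 1.29 in MDA-MB-468 and 0.02 in HCC70. FARSA, a subunit of the phenylalanine enzyme, had 70.2 FPKM in K18+K14+ and 54.0 FPKM in K18+ cells of MDA-MB-468, and 64.6 FPKM in K18+K14+ and 39.8 FPKM in K18+ cells of HCC70. Its partner subunit FARSB had 31.4 FPKM in K18+K14+ and 40.7 FPKM in K18+ cells of MDA-MB-468, and 43.9 FPKM in each of these populations of HCC70. The fitted log2 difference in limma was 0.53 ± 0.39 (SE) for FARSA and 1.15 ± 0.58 for QARS1, with adjusted p = 0.855 for each.

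Ranked in the same way, the first members lower in K18+K14+ cells in both lines were SLC7A11, NARS1, LARS1, SLC38A2 and IARS1. NARS1, the asparagine enzyme, had 21.0 FPKM in K18+K14+ and 42.4 FPKM in K18+ cells of MDA-MB-468, and 48.7 FPKM in K18+K14+ and 78.0 FPKM in K18+ cells of HCC70. The fitted log2 difference in limma was -0.82 ± 0.39 (SE) for NARS1 and -0.97 ± 0.43 for SLC38A2, with adjusted p = 0.855 for each. SLC38A2 and IARS1 were lower in both lines by unequal amounts, and no call was made for either.

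Transcript length moved with these ratios. Over the 12362 tested genes with an annotated length, the rank correlation of the log2 ratio of K18+K14+ over K18+ with length was -0.33 in MDA-MB-468 and -0.25 in HCC70. Over the 37 members with a length (CHAC1 had none) it was -0.54 and -0.33. Genes of 1 library share its RNA quality, and these values describe the libraries. EIF4EBP1 has the shortest transcript of the members, at 1020 bases, and SLC7A11, SLC38A2, LARS1 and IARS1 are among the longest, at 9645, 4888, 4766 and 4656 bases. EPRS1 (5014 bases) and VARS1 (4312 bases) are long as well, with log2 ratios of K18+K14+ over K18+ of -0.08 and 0.73 in MDA-MB-468 and -0.0047 and 0.37 in HCC70. HARS1 (2440 bases) and QARS1 (2827 bases) are of middle length, the first low and the second high in MDA-MB-468 K18+K14+ cells. With the ratios corrected for length, the fitted difference of SLC38A2 was -0.64 and that of QARS1 1.31, and the median of the members was 0.09, above 0. This correction was fitted over all genes as well, where the correlation was weaker than over the members. The part of RNA breakage in these ratios was not tested.

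**Figure D4:**
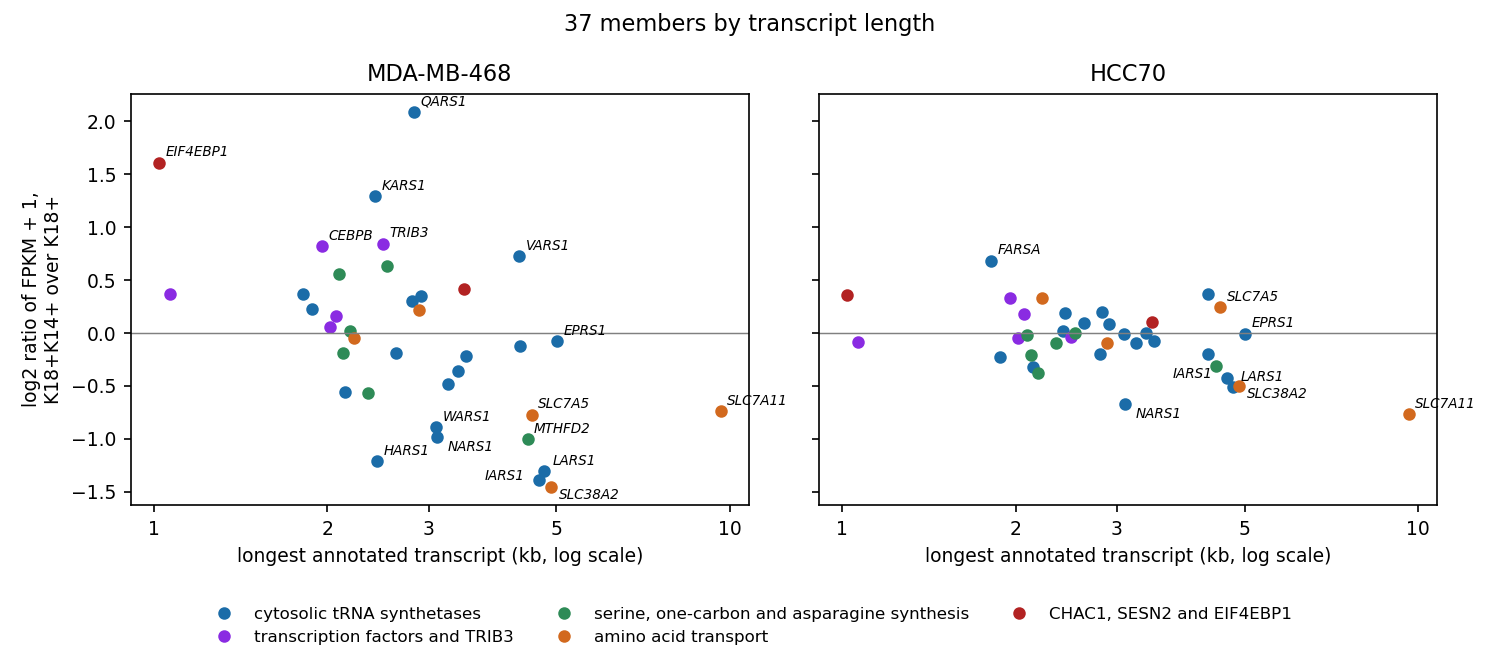
Log2 ratio of FPKM + 1, K18+K14+ over K18+ (y axis), against the longest annotated transcript in kb (x axis, log scale) for 37 members, with MDA-MB-468 on the left and HCC70 on the right. In MDA-MB-468 the long transcripts of SLC38A2, IARS1 and LARS1 lie near -1.4 and the short EIF4EBP1 at 1.61, while in HCC70 most members lie near 0.

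K18+Vim+ cells were set against K18+ cells to ask what goes with vimentin. No member passed this test either. In limma 0 of 12454 genes (0.0%) passed, 532 had an unadjusted p under 0.05, and 1 of these was a member, PSPH, with a log2 difference of -1.32 ± 0.52 (SE) and an adjusted p of 0.863. Members were higher in both lines in 8 cases and lower in both in 13, beside 16.5% and 33.9% of all genes. In HCC70 1 member (2.63%) was past 2-fold, beside 5.07% of all genes, and in MDA-MB-468, with the library as labelled, 5 were, beside 28.5%.

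Ranked by the smaller of the 2 line ratios, the first members higher in K18+Vim+ cells in both lines were HARS1, EIF4EBP1, WARS1, FARSA and QARS1, with fitted log2 differences of 0.37, 0.41, 0.45, 0.22 and 0.20. The first members lower in both lines were SLC38A2, PSPH, SLC1A5, NARS1 and GARS1, with -0.67, -1.32, -0.66, -0.58 and -0.34. The adjusted p in limma was between 0.863 and 0.977 for these 10 members.

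In HCC70, MTHFD2 had 61.3 FPKM in K18+Vim+ cells, against 124 FPKM in K18+ cells, a log2 ratio of -1.01, and 100 FPKM in K18+K14+ cells. Other enzymes and synthetases were lower there by less. NARS1 had a log2 ratio of -0.71, SLC38A2 -0.68, PSAT1 -0.67, KARS1 -0.56, AARS1 -0.54, PSPH -0.52 and SLC1A5 -0.50, while HARS1 was at 0.44 and CEBPB at 0.33. The members' median in HCC70 was -0.18, beside -0.16 for all genes. These HCC70 ratios have 1 library on each side and no replicate check.

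In MDA-MB-468 the ratios set the library that stood apart against K18+ cells of its label. TRIB3, CEBPB and PSPH were at -2.35, -2.22 and -2.12, and SESN2 and ASNS at 1.64 and 1.26. In HCC70 the same genes were at 0.25, 0.33, -0.52, -0.05 and -0.38. When HCC70 K18+Vim+ was left out of the limma fit, so that the comparison rested on this library, the spread came from the other groups, with 1 residual degree of freedom, and the lone library was assumed to vary like them. In that fit 1500 genes passed, and TRIB3, CEBPB and PSPH were the 3 members among them, all lower. When the library that stood apart was left out instead, 0 genes passed, and the difference of PSPH was -0.51.

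**Figure D5:**
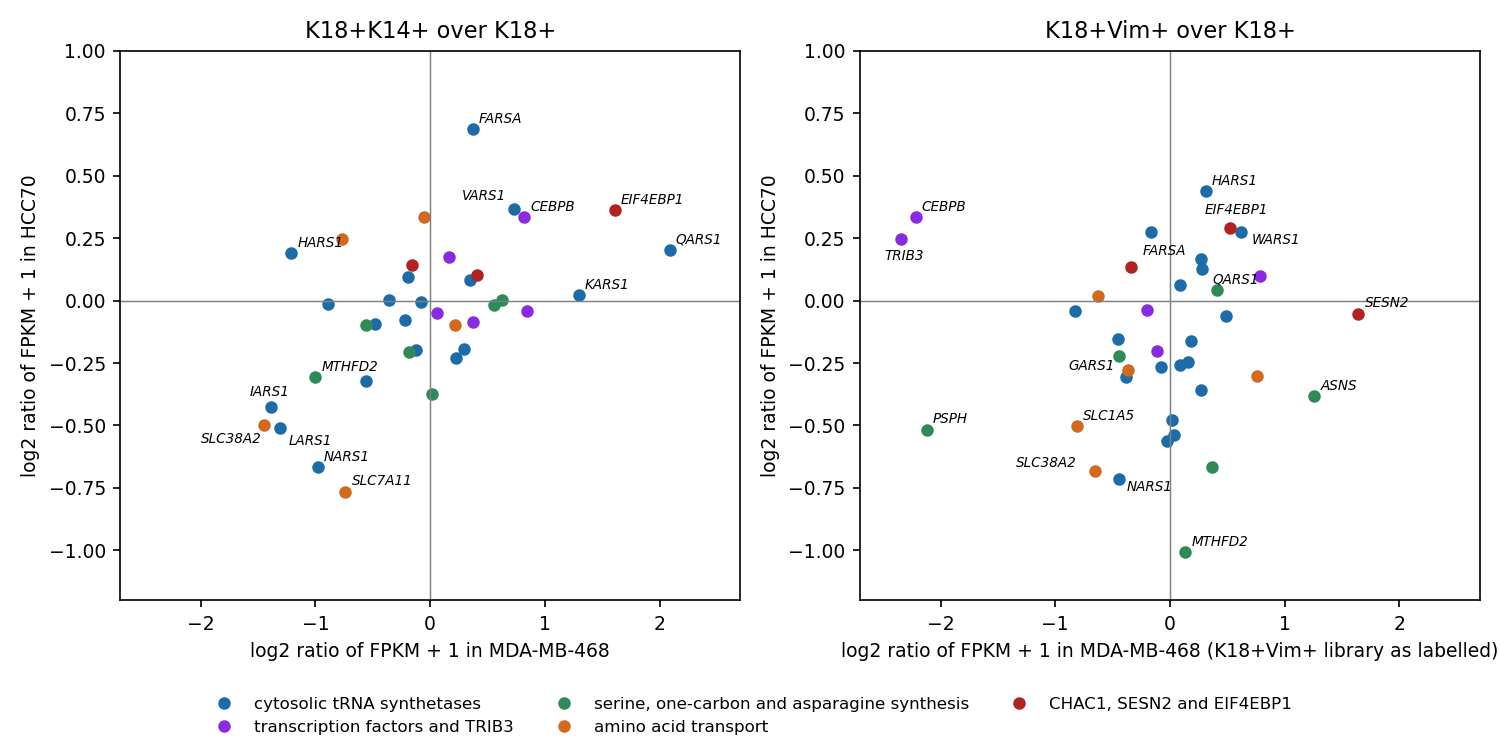
Log2 ratios of FPKM + 1 within MDA-MB-468 (x axis) and within HCC70 (y axis, a narrower scale) for the 38 members, K18+K14+ over K18+ on the left and K18+Vim+ over K18+ on the right. Members spread more along the x axis than the y axis, and on the right TRIB3, CEBPB and PSPH lie near -2.2 in MDA-MB-468 with its library as labelled, and between -0.52 and 0.33 in HCC70.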

How the data were processed

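FPKM values per Entrez Gene ID were made and deposited by the authors. Per the submitters' processing notes, TopHat2 and the build GRCh37 were used; the sources used here do not give the counting tool, annotation or versions. Of 18807 rows, 7 with a blank were dropped (all in the column of the MDA-MB-468 library with the K18+Vim+ label), and 5 IDs with 2 rows were reduced to the row of higher mean. The genes averaging 1 FPKM or more were fitted as log2(FPKM + 1), which understates the differences of low genes, with limma 3.58.1 in R 4.3.3 (line and population as terms, eBayes with trend, Benjamini-Hochberg at 0.05, 2 residual degrees of freedom). Libraries of 1 line are paired across populations by the labels, so line is the block. P-values measure the spread between these libraries only. The script was tested on simulated data.

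The members and lists were chosen with earlier results of these data known. Values in every library are given for AARS1, for role groups of at most 6 members and for the 6 synthetases with the largest absolute mean line ratio; population comparisons name up to 5 members per direction with the same sign in both lines, ranked by the smaller absolute line ratio. KARS1 and MARS1 between the lines, members past 2-fold in a line, and other HCC70 K18+Vim+ ratios, were named after their values were seen. Lists name up to 2 genes, and 1 gene is not reported here. Transcript lengths are from GENCODE v29 and promoters from RefSeq (GRCh38.p14), on the gene's strand; in 44 of 48 member windows the bases after the start were found in a transcript of the gene. Alternatives were no replicate block, pseudocounts of 0.1 and 5, no filter or 5 FPKM, quantile normalization, no trend, a length correction, each library left out and only the libraries compared. Tables were handled in Python 3.11.15.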

Additional observations from a re-analysis of the deposited data

How the results depend on the processing

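For MDA-MB-468 against HCC70, 1522 genes and 5 members passed in limma. The member counts for this contrast rest on the values that led to the choice of the genes. With no filter on low values 0 genes and 0 members passed (3993 genes had an unadjusted p under 0.05), and with only the K18+K14+ and K18+ libraries 3366 genes and 11 members did. Leaving out 1 library gave 206 to 3360 genes and 0 to 11 members. It was 3344 genes without the MDA-MB-468 library with the K18+Vim+ label and 3360 without HCC70 K18+Vim+, with 11 members each, and 326 or 241 genes without the K18+K14+ or K18+ library of MDA-MB-468 and 288 or 206 without those of HCC70, with 0 members each. No alternative turned the median of the members (-0.69 to -0.52), and the log2 difference of AARS1 was below 0 throughout.

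For K18+K14+ against K18+, 0 members passed under any alternative, and 1 gene passed without HCC70 K18+K14+. The members' median was -0.03, near 0, and its sign depended on scaling: it was -0.20 with quantile normalization, which moved the median of all genes from -0.16 to 0.00, and 0.085 with the length correction. Leaving out 1 library gave medians of -0.04 to 0.045. CEBPB reversed to -0.30 without MDA-MB-468 K18+K14+.

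For K18+Vim+ against K18+, leaving out 1 library gave 0 to 1500 genes and 0 to 3 members, the highest without HCC70 K18+Vim+. HARS1 reversed to -0.0084 without HCC70 K18+, and QARS1 to -0.31 without MDA-MB-468 K18+ and -0.19 without HCC70 K18+Vim+. With no replicate block (line dropped from the fit), 0 genes passed in either population comparison, as with it. For the lines, the fit with population dropped instead gave 1875 genes and 5 members. Neither changed a call of a member. The unknown depth, 1 library per population and line, and medium that goes with line limit each result, and the cause of the shifts was not tested.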
